A study of Mus musculus with 9 samples.

Results

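T, also named Brachyury, drives mesoderm formation at the primitive streak as a DNA-binding protein of the T-box family. SMAD1 is the transcription factor that carries the BMP signal into the nucleus, and TCF1 is a DNA-binding partner of beta-catenin in WNT signalling. In the embryo, BMP and WNT signals act on the epiblast at the time when mesoderm and germ cell precursors arise, so the places bound by T raise the question whether SMAD1 and TCF1 are found there too. The following describes 613 regions of the mouse autosomes with a strong T signal, and how the TCF1 library and 4 SMAD1 libraries stood at them.

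The data are read counts from chromatin immunoprecipitation and sequencing (ChIP-seq), in which DNA fixed to a protein is pulled down with an antibody and its reads are counted along the genome. All 9 libraries come from C57BL/6 epiblast-like cells, which are stem cells brought to a state like the early epiblast in culture. T and a SMAD1 library of 36 h were profiled in PV, a line with a Prdm14-mVenus reporter. TCF1 and SMAD1 libraries of 12, 24 and 36 h came from BV, a line with a Blimp1-mVenus reporter. The SMAD1 libraries are named by their hours, with the line for those of 36 h. Inputs, which are fragmented chromatin with no antibody, were titled PV, BV and BVSC, and the one titled BVSC is labelled as the BV line. The labels give no time for T and TCF1 and do not tie single libraries to the BMP4 and WNT3A treatment that the protocol mentions. Each group had 1 library, so no difference below has a replicate check, and there are no p-values. T and TCF1 were also measured in different lines, and line, time and antibody cannot be told apart when the libraries are set side by side.

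The regions were chosen by the counts of the T library and of the inputs, so their T values describe the choice and are no finding. Counts in windows of 2 kb, placed every 1 kb, were scaled so that a typical window has a level of 1, and enrichment is the scaled value plus 0.5 over the scaled input plus 0.5. A window was kept where the mean input was at least 0.25 and no input was above 3, and it was called where the T enrichment over input PV and the scaled T level were both at least 4. Of 2240227 autosomal windows kept, 1028 met this rule (0.0459%, the quantity that chose the regions), and touching windows were merged. Another 25 T regions lay on chromosome X, and 4 lay within 60 kb of the mesoderm genes Fgf8, Msgn1 and Mesp1. These were left out, as were windows near Tbx6, where no T region was called, so that 613 of 642 regions remained. All positions are mm9 windows as the deposited tables write them. The regions are named by position alone, since the gene table at hand is of another genome build, and for the same reason no sequence is shown.

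By T enrichment at the summit, the window of a region with the highest T enrichment, 393 regions fell between 4 and 6, 105 between 6 and 8, 107 between 8 and 16, and 8 at 16 or more. The median T enrichment in these 4 classes was 4.62, 6.78, 10.3 and 18.5. Widths were 2 kb in 227 regions, 3 kb in 357 and 4 kb in 29, and 2 kb is the smallest width the windows allow. The last regions inside the threshold lay on chromosome 18 at 62582001, chromosome 14 at 12101001 and chromosome 2 at 161663001. Just outside it were single windows on chromosome 2 at 140518001 (T enrichment 3.9996) and on chromosomes 15 and 16 at 40754001 and 14721001. On both sides of the threshold the other libraries, each over its own input, stood between 0.628 and 1.47 in these windows.

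Depth set how finely single regions could be read. The 6 immunoprecipitated libraries held between 14925074 reads (BV 36 h SMAD1) and 43354004 (PV 36 h SMAD1), and the inputs between 42532115 and 134657262. At a T summit the median count was 28 for TCF1, 17 for 12 h SMAD1, 24 for 24 h SMAD1, 18 for BV 36 h SMAD1 and 44 for PV 36 h SMAD1. Counting error alone would give a spread of log2 enrichment across regions of 0.21 for TCF1 and between 0.22 and 0.27 for the SMAD1 libraries. The spread seen (SD over 613 regions) was 0.38 for TCF1 and 0.30 to 0.35 for SMAD1. Counting thus made up 30.9% of the variance for TCF1 and 53.5 to 59.4% for SMAD1, so values of single regions carry wide counting error. The 95% intervals of count ratios are exact (Clopper-Pearson) on the split of library and input counts. Reads copied by PCR are not separate molecules, so these intervals hold counting error alone.

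All 5 libraries stood slightly above input at the T summits, with BV 36 h SMAD1 the highest. Its median log2 enrichment over input BV was 0.34 (interval of the median over regions, 0.31 to 0.37), and 511 of the 613 regions (83.4%) lay above 0. The 24 h SMAD1 library had a median of 0.19 (0.17 to 0.22) with 455 regions above 0, and 12 h SMAD1 had 0.11 (0.08 to 0.14) with 373 above 0. TCF1 had a median of 0.15 (0.11 to 0.19) with 412 above 0. PV 36 h SMAD1 had 0.19 (0.16 to 0.22) over input PV and 0.18 (0.14 to 0.21) over input BVSC. The second of these is the one to read, because input PV also chose the regions. Over all windows kept, medians lay between -0.03 and -0.02, and between 47.0 and 47.9% of windows were above 0 for the 4 BV libraries. Regions are not replicates of the experiment, so these intervals describe the set of regions in single libraries.

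Libraries without antibody, set against each other, gave the difference between inputs at these summits. They cannot give the background of a pull-down, since inputs hold no reads that an antibody brings down away from its target. The series has no library of a control antibody, so that background was not measured. Input BVSC over input BV had a median of -0.02 (-0.05 to 0.00) at the T summits. Input BV over input PV stood at 0.05 (0.03 to 0.08), and input PV is the input that chose the regions. No T summit had 2-fold or more in either comparison, against 0.00763% of all windows for the first and 0.00687% for the second.

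As ratios of counts summed over the 613 summits, which weight regions by their reads, the order was the same for SMAD1 in BV. The ratio to input BV was 1.15 (1.13 to 1.18) for 12 h SMAD1, 1.24 (1.21 to 1.26) for 24 h SMAD1 and 1.43 (1.41 to 1.46) for BV 36 h SMAD1, from 11122, 15281 and 11333 counts. TCF1 had 1.22 (1.20 to 1.25) from 17718 counts, and PV 36 h SMAD1 had 1.19 (1.17 to 1.21) over input BVSC. Each ratio, for PV 36 h SMAD1 the one over input PV, was above 1 on all 19 autosomes. On single chromosomes they ranged from 1.26 to 1.65 for BV 36 h SMAD1, from 1.07 to 1.45 for TCF1 and from 1.01 to 1.28 for 12 h SMAD1.

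**Figure D1:**
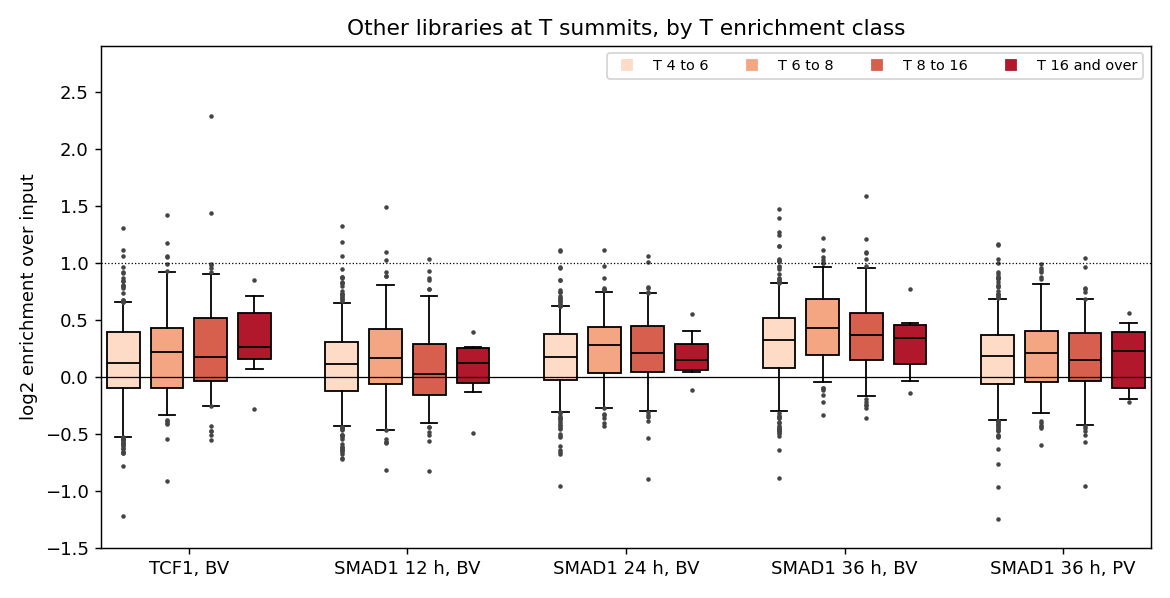
Log2 enrichment over input (vertical axis) of TCF1 and the 4 SMAD1 libraries at 613 T summits, by class of T enrichment (393, 105, 107 and 8 regions). Boxes span the quartiles with the median, whiskers the 5th to 95th percentile and dots the regions beyond them; the solid line is input level and the dotted line 2-fold, BV libraries are over input BV and PV 36 h SMAD1 is over input BVSC. Most boxes of BV 36 h SMAD1 lie above input, and few regions of any library reach 2-fold.

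Few T regions were raised clearly in another library. BV 36 h SMAD1 had 2-fold or more at 19 of 613 summits (3.10%), against 0.05% of all windows kept. TCF1 had it at 9 (1.47%, against 0.102% of windows), and 12 h SMAD1 at 7 (1.14%, against 0.161%). The 24 h SMAD1 library had it at 5 (0.816%, against 0.033%). For PV 36 h SMAD1 it was 2 over input PV (against 0.052%) and 4 over input BVSC (against 0.106%). Windows with a T enrichment of 2 to 3, below the threshold, also held 2-fold values, in 1.03% of them for TCF1, 1.74% for 12 h SMAD1, 0.787% for 24 h SMAD1 and 1.47% for PV 36 h SMAD1 over input BVSC. For BV 36 h SMAD1 the share was 0.896% there and 0.990% at T of 3 to 4, and TCF1 had 1.82% at 3 to 4. Each library was also thinned to the depth of BV 36 h SMAD1 in 20 random draws. The counts then ranged over 11 to 20 for TCF1 and 3 to 13 for PV 36 h SMAD1 over input PV, above their counts at full depth. They ranged over 5 to 11 for 12 h SMAD1 and 3 to 8 for 24 h SMAD1, which holds their counts at full depth. BV 36 h SMAD1 had 19. Going the other way, TCF1 stood at 0.5 or less at 1 of 613 summits (0.163%), against 0.917% of all windows kept. No summit was that low in a SMAD1 library over its own input, against 0.413% of windows for 12 h SMAD1, 0.132% for 24 h SMAD1, 0.497% for BV 36 h SMAD1 and 0.062% for PV 36 h SMAD1. For PV 36 h SMAD1 that input also chose the regions. Over input BVSC, 1 summit was that low in each SMAD1 library. In the same order of libraries, 23154, 13625, 27185 and 8056 of the 2240227 windows kept were that low over input BVSC. Shares this small leave few summits to find among 613.

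By the rule that chose the T regions, 1 T region was also called for TCF1 in a window called for T (0.0029% of all windows are called for TCF1). It lay on chromosome 4 at 107405001 to 107408001, where T had 362 counts against 41 in input PV (enrichment 12.8) and TCF1 had 167 against 125 in the deeper input BV (enrichment 4.88, count ratio 6.62, 5.22 to 8.41). Enrichments there were 1.70 for 12 h SMAD1, 2.01 for 24 h SMAD1 and 2.31 for BV 36 h SMAD1. PV 36 h SMAD1 had 1.64 over input PV and 1.52 over input BVSC. Every library was above input at this region, with TCF1 far ahead of SMAD1.

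A further T region, on chromosome 8 at 35866001 to 35869001, overlapped a TCF1 region at 35868001 to 35870001. TCF1 measured 4.15 at its own summit and 1.53 at the T summit, so the highest TCF1 window was not the T summit. These 2 regions were 5% of the 40 TCF1 regions (exact interval 0.611 to 16.9%) and 0.326% of the T regions. Of all windows kept, 0.0459% were called for T. None of the SMAD1 regions touched a T region, with 0 of 109 for 12 h SMAD1, 0 of 46 for 24 h SMAD1, 0 of 15 for BV 36 h SMAD1 and 0 of 68 for PV 36 h SMAD1. A count of 0 allows up to 2.75, 6.52, 20 and 4.41% of these lists, by 3 counts of the total. The exact interval, as used for TCF1, reaches 3.33, 7.71, 21.8 and 5.28%. With 0.0459% of windows called for T, a count of 0 in lists this short does not set SMAD1 regions apart from other windows. The shares of windows that SMAD1 libraries called were 0.00951, 0.0042, 0.000937 and 0.00527%. Within 50 kb of a T summit there was a TCF1 region for 5 T regions (0.816%, against 0.17% of all windows kept) and a 12 h SMAD1 region for 1 (0.163%, against 0.43%). There was also 1 T region (0.163%) near a 24 h SMAD1 region, against 0.169% of windows, and 1 near a PV 36 h SMAD1 region, against 0.268%. The 24 h SMAD1 region lay within 10 kb, as do those of 0.0391% of windows, and no T region was within 50 kb of a BV 36 h SMAD1 region, against 0.0645%.

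After the shared region on chromosome 4, TCF1 was highest on chromosome 7 at 26359001 to 26363001, a strong T region (T enrichment 14.8). TCF1 had 53 counts against 62 in input BV there, with an enrichment of 2.70 and a count ratio of 4.23 (2.88 to 6.21). The 12 h SMAD1 library was also raised there, with 2.05. On chromosome 11 at 68931001, TCF1 had 2.67 and 12 h SMAD1 2.13, and on chromosome 7 at 4481001 TCF1 had 2.47 and 12 h SMAD1 1.20. The fifth was on chromosome 13 at 25046001, with 2.25 for TCF1 and 1.74 for 12 h SMAD1. At the 5 regions highest in TCF1, 12 h SMAD1 thus lay between 1.20 and 2.13, and 24 h SMAD1 between 0.939 and 2.01. These values and those of TCF1 share input BV, so a low input count raises them together. On chromosome 7 at 4481001 the count ratio of 12 h SMAD1 had an interval of 0.760 to 2.09, which holds 1.

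BV 36 h SMAD1 was highest on chromosome 13 at 99286001 to 99290001, where T had an enrichment of 10.3. It had 43 counts against 93 in input BV, with an enrichment of 2.99 and a count ratio of 4.19 (2.85 to 6.08). The other SMAD1 libraries had 1.22 (12 h), 1.39 (24 h) and, for PV, 1.46 over input PV and 1.10 over input BVSC. TCF1 had 1.07, so this region stood out in 1 library. On chromosome 11 at 53572001, the SMAD1 values in BV were 1.26, 1.69 and 2.63 in order of time. A T region of low strength on chromosome 4 at 88509001 (T enrichment 4.08) was raised in every SMAD1 library. It is named because it was among the 5 highest in each SMAD1 library of BV. In BV the values were 2.50, 2.16 and 2.77 in order of time, while TCF1 had 0.994. PV had 1.84 over input PV and 1.56 over input BVSC. The BV values share input BV, which had 85 counts there, against a mean of 112 in typical windows. Input BVSC had 45, against a mean of 38.3. On chromosome 6 at 48816001 (T enrichment 6.55) all 5 libraries were raised. SMAD1 in BV had 2.80, 2.15 and 2.16 in order of time, and TCF1 had 2.08. PV had 1.88 over input PV and 1.92 over input BVSC. Input BV had 83 counts and input BVSC 33 there. PV 36 h SMAD1 had its highest value over input PV on chromosome 1 at 60488001, with 2.33, which was 1.72 over input BVSC.

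At the 3 strongest T regions no other library reached 2-fold. The first lay on chromosome 18 at 13575001 to 13579001 (T enrichment 31.9, 723 counts against 29). TCF1 had 0.819 there, 12 h SMAD1 0.976, 24 h SMAD1 1.14 and BV 36 h SMAD1 0.976. PV 36 h SMAD1 had 1.07 over input PV and 1.08 over input BVSC. At the second, on chromosome 3 at 3348001 (28.8), all 5 values were above input, between 1.17 and 1.44. TCF1 had 1.17 and BV 36 h SMAD1 1.25, beside median enrichments of 1.11 and 1.27 over the 613 regions. PV 36 h SMAD1 had 1.44 over input PV, with a count ratio of 1.68 (1.07 to 2.66), and an enrichment of 1.47 over input BVSC. At the third, on chromosome 1 at 184920001 (27.0), the BV libraries lay between 1.04 and 1.20. PV 36 h SMAD1 had 0.984 over input PV and 1.26 over input BVSC. Among the next 7, TCF1 reached 1.79 on chromosome 1 at 171909001, 1.63 on chromosome 13 at 19004001 and 1.85 on chromosome 3 at 137966001. On chromosome 3 at 137966001 24 h SMAD1 had 2.08, the only value of 2 or more among these 10 regions in any of the 5 libraries over its own input.

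**Figure D2:**
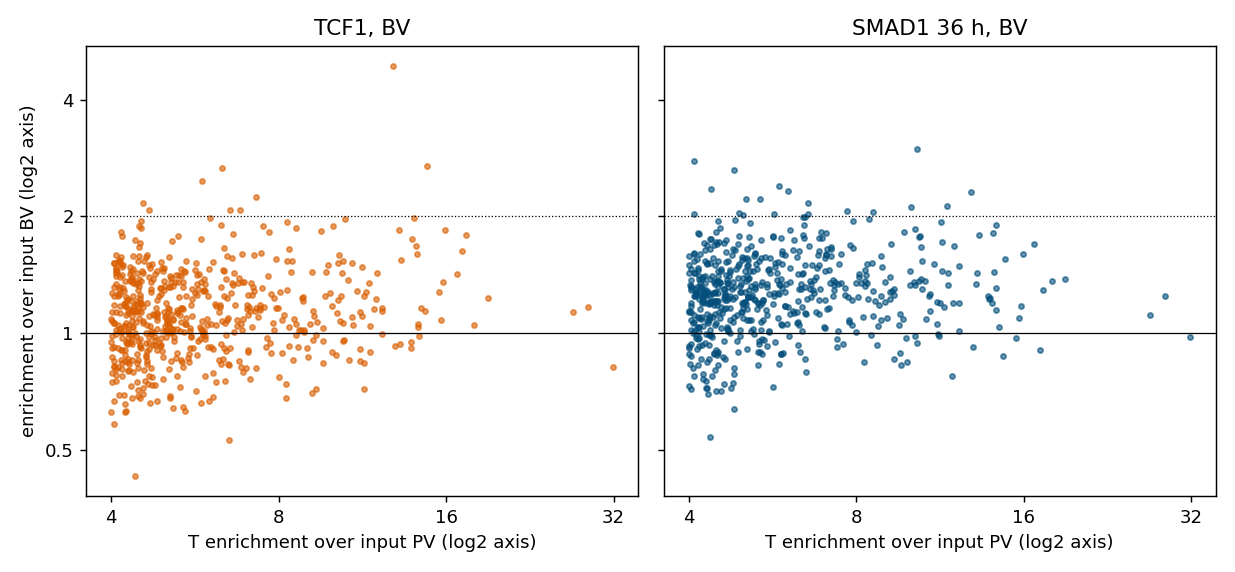
Enrichment of TCF1 (left) and of BV 36 h SMAD1 (right) over input BV against T enrichment over input PV, 1 dot for each of 613 T regions, all axes on a log2 scale, with lines at input level and at 2-fold. The single TCF1 dot above 4 is the region on chromosome 4 at 107405001, and the 3 strongest T regions lie below 2-fold in both panels.

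By T strength, summed TCF1 counts over input were lowest at the weakest T regions. For TCF1 the ratio to input BV was 1.17 (1.15 to 1.20) at T regions of 4 to 6, 1.28 (1.23 to 1.34) at 6 to 8, 1.35 (1.30 to 1.40) at 8 to 16 and 1.48 (1.28 to 1.70) at 16 or more. Only the intervals of the first pair of neighbouring classes did not overlap. Over input BVSC the TCF1 ratios were 1.19, 1.33, 1.30 and 1.44, so the order of the middle classes turned with the input. The last class holds 8 regions with 262 TCF1 counts. Without the region called for TCF1, the value at 8 to 16 was 1.29 (1.24 to 1.35). The medians, which a few high regions cannot move much, were 0.12, 0.21, 0.17 and 0.26 on the log2 scale, with intervals that overlapped between classes. Across the 613 regions, Spearman's rho of TCF1 with T enrichment was 0.11, a weak relation given as a description.

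BV 36 h SMAD1 had ratios of 1.38 (1.35 to 1.42), 1.57 (1.50 to 1.65), 1.50 (1.43 to 1.57) and 1.38 (1.14 to 1.66) in the same classes. The class of 6 to 8 stood above that of 4 to 6 beyond counting error, and values in the stronger classes were no higher. The share of regions above input was 80.7% (317 of 393) at 4 to 6, 92.4% (97 of 105) at 6 to 8 and 85.0% (91 of 107) at 8 to 16. At 16 or more, 6 of 8 regions were above input. Spearman's rho with T enrichment was 0.16.

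Ratios were 1.14, 1.25, 1.13 and 1.06 in the 4 classes for 12 h SMAD1, and 1.21, 1.31, 1.28 and 1.22 for 24 h SMAD1. PV 36 h SMAD1, over input BVSC, had 1.18, 1.25, 1.17 and 1.18. Over these inputs, the class of 6 to 8 had the highest value in each of the 3 libraries, and the intervals of the class of 16 or more held the values of 4 to 6. For 12 h SMAD1 the median was 0.17 (0.10 to 0.26) at 6 to 8 and 0.03 (-0.03 to 0.15) at 8 to 16.

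In the mean profile the level was highest at the T summit. For BV 36 h SMAD1, the mean scaled level was 1.49 at the summit, 1.33 and 1.35 at 1 kb on either side, 1.15 and 1.17 at 2 kb, and 1.08 and 1.11 at 5 kb. TCF1 had 1.28 at the summit and 1.06 to 1.09 at 5 kb, 24 h SMAD1 had 1.29 and 12 h SMAD1 1.20. T itself had 8.98 at the summit and 1.34 to 1.35 at 2 kb, the first windows that share no bases with the summit window. Input BV stood at 1.04 and input BVSC at 1.03 at the summit, close to their levels around it. Input PV, which chose the regions, dipped to 0.995 from 1.12 and 1.10 at 2 kb.

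**Figure D3:**
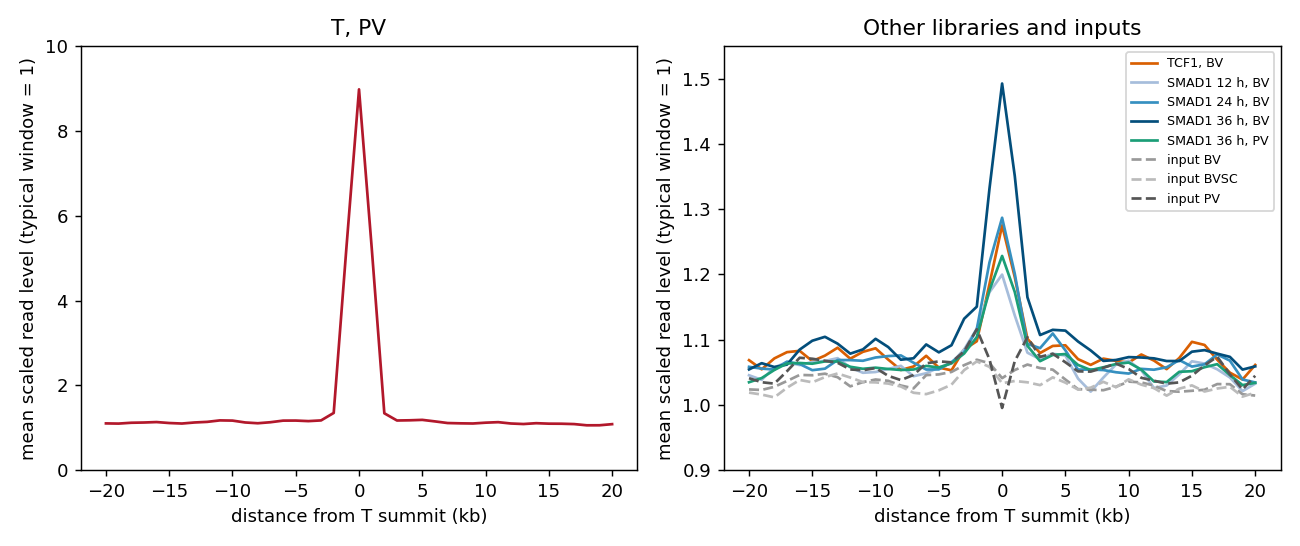
Mean scaled read level (vertical axis, a typical window is 1) in windows from -20 to 20 kb of the T summit over 613 regions, for T (left) and for the other immunoprecipitated libraries (solid) and inputs (dashed) on a narrower scale (right, starting at 0.9). All 5 solid lines on the right peak at the T summit, that of BV 36 h SMAD1 at 1.49, while input PV dips there.

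A measure that needs no input gave the same order for the BV SMAD1 libraries. The count at the summit was set against the mean of windows 5, 7 and 9 kb away on both sides, in the same library. This ratio was 1.38 (1.35 to 1.40) for BV 36 h SMAD1, 1.21 (1.19 to 1.23) for 24 h SMAD1 and 1.14 (1.12 to 1.16) for 12 h SMAD1. It was 1.16 (1.14 to 1.17) for PV 36 h SMAD1 and 1.19 (1.18 to 1.21) for TCF1. Inputs BV and BVSC had 1.01, and input PV had 0.942 (0.929 to 0.956). By T class, TCF1 had 1.14, 1.19, 1.38 and 1.47, and BV 36 h SMAD1 had 1.34, 1.43, 1.47 and 1.49, so for these libraries the ratio was higher at each stronger class. Intervals of neighbouring classes overlapped, except those of 6 to 8 and 8 to 16 for TCF1. The other libraries had 1.13, 1.18, 1.15 and 1.09 for 12 h SMAD1, 1.19, 1.21, 1.29 and 1.27 for 24 h SMAD1, and 1.15, 1.12, 1.23 and 1.27 for PV 36 h SMAD1. The class of 6 to 8 was thus not the highest by flanks for the last pair. At 6 to 8 the inputs themselves were lower at the summit than in their flanks, with 0.979 for BV, 0.956 for BVSC and 0.901 for PV.

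The position of the highest window within 5 kb of the T summit was also counted. It lay within 1 kb of the T summit at 338 of 613 regions (55.1%, exact interval 51.1 to 59.1) for BV 36 h SMAD1. The share was 44.5% for 24 h SMAD1, 33.1% for 12 h SMAD1, 42.9% for PV 36 h SMAD1 and 39.0% for TCF1, with ties given to the first window. Equal chances for the 11 windows would give 27.3%, and input BVSC gave 26.1% (22.7 to 29.8) and input BV 24.3%. Input PV gave 15.0%, and T itself 99.7%.

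The order of the 3 BV SMAD1 libraries at T summits was opposite to their order at regions of SMAD1. The 68 autosomal regions called for PV 36 h SMAD1 were called with no immunoprecipitated BV library, though inputs BV and BVSC took part in the filter on windows. At their summits the ratio to input BV was 10.8 (10.4 to 11.1) for 12 h SMAD1, 5.08 (4.92 to 5.25) for 24 h SMAD1 and 3.96 (3.80 to 4.12) for BV 36 h SMAD1. Counts of the BV libraries set directly against each other, with no input, gave 0.368 (0.354 to 0.382) for 36 h over 12 h there, and 1.24 (1.21 to 1.28) at the T summits. For 24 h over 12 h the values were 0.472 (0.459 to 0.487) and 1.07 (1.05 to 1.10), and for 36 h over 24 h 0.779 (0.748 to 0.812) and 1.16 (1.13 to 1.19). The paired difference in log2 enrichment between 36 and 12 h was above 0 at 437 of 613 T summits (71.3%) and at 1 of 68 SMAD1 summits, against 50.0% of all windows kept. TCF1 at the SMAD1 summits had a ratio of 1.16 (1.11 to 1.22), and T over input BVSC had 1.25 (1.18 to 1.33).

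**Figure D4:**
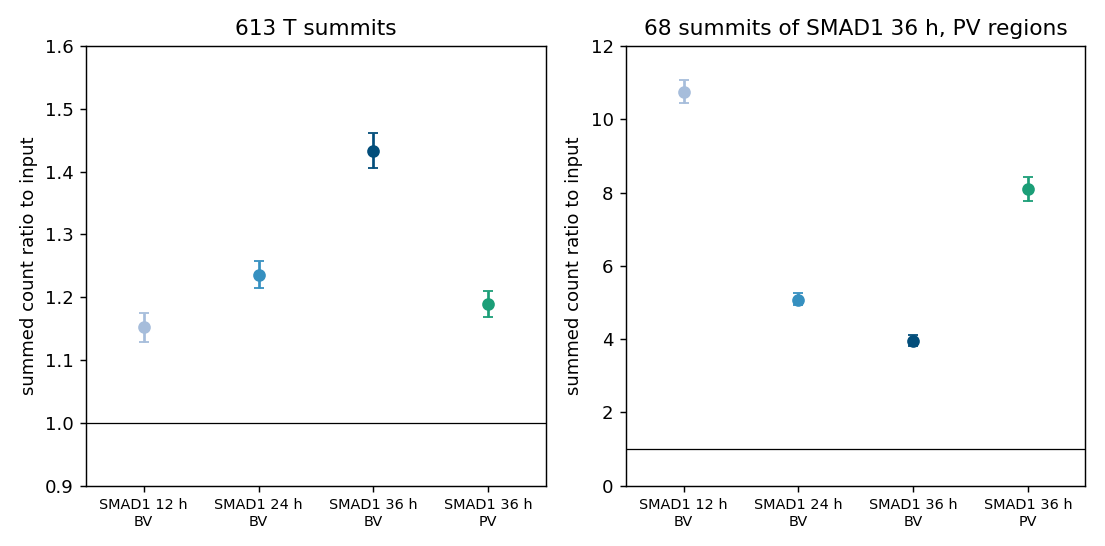
Ratio of summed counts to input with its exact 95% interval for the 4 SMAD1 libraries, at 613 T summits (left, axis from 0.9) and at the summits of 68 regions called for PV 36 h SMAD1 (right, axis from 0); BV libraries are over input BV and PV over input BVSC, and the PV point on the right is from the library that chose those regions. In BV the 36 h library is the highest at T summits, with 1.43, and the lowest at SMAD1 regions, with 3.96.

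Several properties of the libraries moved along with this order, and their part in it was not tested. The number of regions called in BV was 109, 46 and 15 in order of time, and BV 36 h SMAD1 was the shallowest library. PV 36 h SMAD1, of the same hour, called 68 regions and stood at 1.19 at T summits. In the thinned draws the median at T summits was 0.10 to 0.12 for 12 h SMAD1, 0.17 to 0.22 for 24 h SMAD1 and 0.16 to 0.21 for PV 36 h SMAD1 over input PV. BV 36 h SMAD1 had 0.34. These draws describe the medians at equal depth, and the part of depth in the order was not tested.

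Windows with weaker T signal than the regions also stood above input. Every other window was used, so that windows did not overlap. Where T enrichment over input PV was 2 to 3 (3685 windows), the ratio to input was already 1.25 (1.24 to 1.26) for TCF1 and 1.24 (1.23 to 1.25) for 12 h SMAD1. The ratio was 1.24 for 24 h SMAD1, 1.25 (1.24 to 1.26) for BV 36 h SMAD1 and 1.23 for PV 36 h SMAD1 over input BVSC, so all 5 lay close together there. Where T was below 0.5 they stood between 0.707 for TCF1 and 0.821 for BV 36 h SMAD1. Input BVSC over input BV moved little and in the other direction, from 1.04 to 1.01.

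Above this range the libraries parted. In windows with T at 4 to 6, 12 h SMAD1 had 1.11 (1.09 to 1.14) and TCF1 1.16 (1.14 to 1.19), both lower than at 2 to 3, and PV 36 h SMAD1 had 1.19 (1.16 to 1.22). BV 36 h SMAD1 had 1.28 (1.25 to 1.30) at 3 to 4, 1.35 (1.31 to 1.38) at 4 to 6, 1.46 (1.38 to 1.54) at 6 to 8 and 1.49 (1.41 to 1.57) at 8 to 16. TCF1 came back up to 1.25 (1.20 to 1.31) at 6 to 8 and 1.44 (1.38 to 1.50) at 8 to 16. Without the 1 window of that class that touched a window called for TCF1, the TCF1 ratio was 1.37 (1.31 to 1.43), and the 7 windows with T at 16 or more had 1.61 (1.40 to 1.86). For 12 h SMAD1, the value at 8 to 16 was 1.14 (1.08 to 1.21), below that of windows with T at 2 to 3. Intervals above those of windows with T at 2 to 3 were thus found for BV 36 h SMAD1 at 4 to 6, 6 to 8 and 8 to 16, and for TCF1 from 8 upward.

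**Figure D5:**
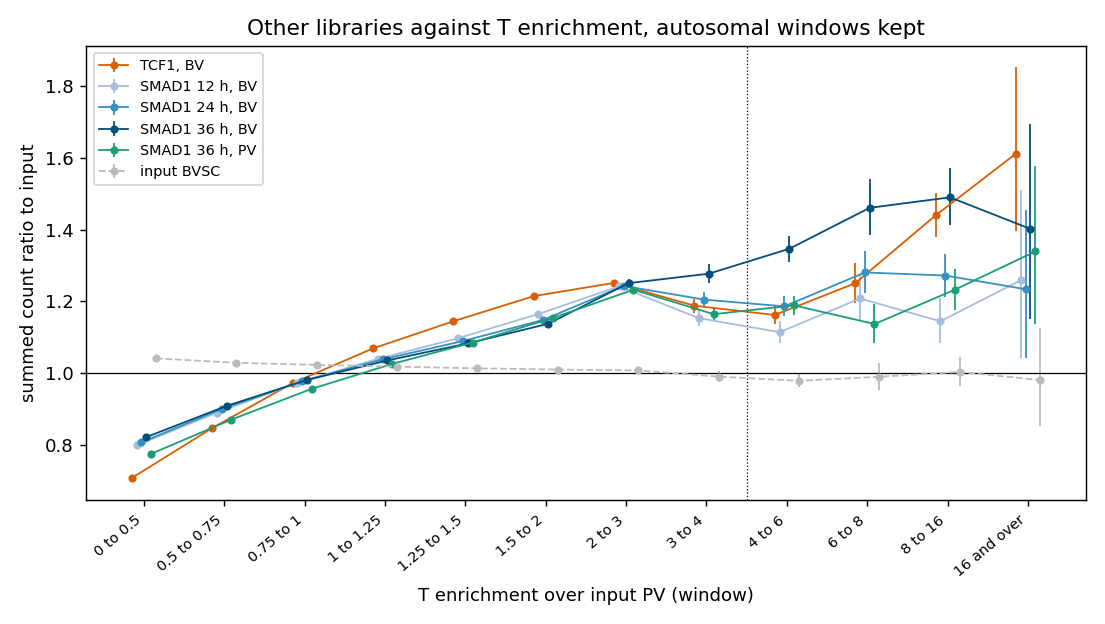
Ratio of summed counts to input with its exact 95% interval (vertical axis) against T enrichment over input PV (horizontal axis, classes of windows), for autosomal windows kept, every other window; the dotted line marks the calling threshold, BV libraries are over input BV, PV 36 h SMAD1 over input BVSC, and input BVSC over input BV is dashed. The 5 libraries lie close together at T of 2 to 3, at 1.23 to 1.25, and above it BV 36 h SMAD1 goes to 1.49 and TCF1 to 1.44 at 8 to 16.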

How the data were processed

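Per the submitters' processing notes, reads were aligned with Bowtie 0.12.8 to mm9. The deposited values are raw read counts in windows of 2 kb stepping by 1 kb, as the values show; no read filter is stated in the labels or tables. Each of the 9 libraries was divided by its mean over 1977886 windows of the autosomes, between the 10th and 90th percentile of mean input, in Python 3.11.15 with numpy 2.4.6 and scipy 1.17.1. Enrichment, filters, the calling rule and T classes are as given above. With 1 library per group no test was run. Medians have binomial rank intervals over regions. The calling and ratio steps were tested on simulated data. Positions of the 4 loci left out were approximate mm9 positions from general knowledge, not checked against an mm9 annotation. They set the 60 kb exclusion and the gene names given to the 4 T regions left out. Named regions are the 10 strongest for T, the 5 highest in each other library, those called in another library and 3 on each side of the threshold; fewer are printed. The 20 thinning draws and the TCF1 window left out were added after seeing the data. The members and lists were chosen with earlier results of these data known. Motif content and nearest genes, planned for the case of an mm9 genome, were not analysed here.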

Additional observations from a re-analysis of the deposited data

How the results depend on the processing

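Of 12 alternatives, 3 moved the number of T regions by more than 1.5 times: a T threshold of 3 gave 1258, one of 6 gave 218 and a pseudocount of 1 gave 341. Every median below stayed above 0 under its 16 alternatives, with ranges of 0.13 to 0.22 for TCF1, 0.08 to 0.17 for 12 h SMAD1, 0.16 to 0.24 for 24 h SMAD1 and 0.28 to 0.40 for BV 36 h SMAD1. For PV 36 h SMAD1 the range was 0.10 to 0.22, over input PV except where an alternative changed the input of the other libraries. A median or a ratio by T class was taken to have moved when it left its interval. A count of regions with 2-fold or more moved when it changed by more than 1.5 times or fell to 0. By these unlike measures 23 medians and 34 counts moved. The cause was not tested for any value that moved.

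With a T threshold of 3, counts were 21 for TCF1, 8 for 24 h SMAD1 and 6 for PV 36 h SMAD1, and the median of BV 36 h SMAD1 was 0.28. With a threshold of 6, medians were 0.19 for TCF1, 0.24 for 24 h SMAD1 and 0.40 for BV 36 h SMAD1, and counts were 4, 3, 9 and 1 for 12 h, 24 h, BV 36 h and PV 36 h SMAD1. A pseudocount of 0.25 gave counts of 32 for TCF1 and 21, 11, 38 and 14 for the SMAD1 libraries in that order, with medians of 0.23 for 24 h, 0.38 for BV 36 h and 0.22 for PV 36 h SMAD1. A pseudocount of 1 gave 4 for TCF1 and 1, 0, 4 and 0 for SMAD1, with medians of 0.16, 0.30 and 0.15 for 24 h, BV 36 h and PV 36 h SMAD1. Scaling by the median gave medians of 0.20 for TCF1, 0.16 for 12 h, 0.24 for 24 h and 0.40 for BV 36 h SMAD1, and counts of 18 for TCF1, 30 for BV 36 h and 4 for PV 36 h SMAD1. Scaling each chromosome on its own gave 14 for TCF1. A mean input of at least 0.5 gave 1 for PV 36 h SMAD1.

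With T regions chosen over input BVSC, counts were 18 for TCF1 and 4 for PV 36 h SMAD1, whose median was 0.10. With input BVSC for the other libraries they were 16 and 4, and the summed ratio of PV 36 h SMAD1 was 1.18 at T of 4 to 6 and 1.17 at 8 to 16. The mean of the 3 inputs gave 24 h SMAD1 a median of 0.23 and a count of 3, and PV 36 h SMAD1 a median of 0.15 and a count of 0. The highest called window of each region gave medians of 0.22 for TCF1 and 0.17, 0.24, 0.39 and 0.22 for the SMAD1 libraries, and a count of 15 for TCF1. The mean over called windows gave counts of 3, 12 and 1 for 24 h, BV 36 h and PV 36 h SMAD1, and a median of 0.31 for BV 36 h SMAD1. In the first thinned draw the counts were 14 for TCF1 and 9 for PV 36 h SMAD1.

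Among the ratios by T class, every other called window gave 1.23 and 1.29 for TCF1 at 6 to 8 and 8 to 16, 1.26 for 24 h SMAD1 at 6 to 8, 1.50 and 1.38 for BV 36 h SMAD1 and 1.21 and 1.18 for PV 36 h SMAD1 at 6 to 8 and 8 to 16. Own flanks in place of an input, chosen after seeing the data, gave 1.14 and 1.19 for TCF1 at 4 to 6 and 6 to 8, 1.18 for 12 h and 1.21 for 24 h SMAD1 at 6 to 8. For BV 36 h SMAD1 they gave 1.34 and 1.43, and for PV 36 h SMAD1 1.15 and 1.12, at 4 to 6 and 6 to 8. Without the region called for TCF1, also added after seeing the data, TCF1 at 8 to 16 had 1.29. No paired analysis was possible because each group has 1 library.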

Other observations

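The 25 T regions of chromosome X, which entered no comparison above, had T enrichments between 4.24 and 9.98. BV 36 h SMAD1 had a summed count ratio of 1.40 (1.21 to 1.60) to input BV there, from 235 counts, and 12 h SMAD1 had 0.935 (0.800 to 1.09). TCF1 had 1.05 (0.928 to 1.18), and 14 of the 25 regions were above input for TCF1 as well as for BV 36 h SMAD1. Over input PV, PV 36 h SMAD1 had 1.34 (1.18 to 1.53).

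At the 4 T regions left out near Fgf8, Msgn1 and Mesp1, genes of the primitive streak and early mesoderm, BV 36 h SMAD1 had a ratio of 1.98 (1.62 to 2.40) and was above input at all 4, with enrichments between 1.43 and 2.05. 24 h SMAD1 had 1.49 (1.23 to 1.78), also above input at all 4, and 12 h SMAD1 had 1.08 (0.849 to 1.36). TCF1 had 1.16 (0.954 to 1.40). The order of the SMAD1 libraries in BV was that of the 613 other regions. With 4 regions and 84 to 148 counts in each BV library, these values are imprecise.

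T regions with an input level of 0.25 to 0.75 numbered 49 (7.99%, against 11.0% of windows kept), 496 had 0.75 to 1.25 and 68 had 1.25 to 3. BV 36 h SMAD1 had ratios of 1.43, 1.44 and 1.37 in these 3 groups, and TCF1 had 1.29, 1.23 and 1.16. Across T regions, log2 enrichment of 12 h SMAD1 over input BV and of PV 36 h SMAD1 over input PV, a pair with no shared input, had a Spearman's rho of 0.28 over 613 regions, and over every other window kept it was 0.24. For TCF1 with the same PV library the values were 0.24 and 0.29. These relations are descriptions, since regions share their libraries and the counts are low.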
